A study of Mus musculus with 5 samples.

Results

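Nuclear-retained long noncoding RNAs (lncRNAs) were measured in ribosome-bound RNA purified from mouse midbrain. The group held 8 genes, Malat1, Neat1, Meg3, Miat, Rian, Mirg, Snhg11 and Kcnq1ot1, chosen by name as abundant neuronal or nuclear RNAs, out of 53700 gene IDs in the count table. RNA was obtained by BAC-TRAP, in which Cre recombinase switches on an EGFP-tagged ribosomal protein (L10a) and an antibody to the tag recovers ribosomes with their RNA. All mice were C57BL/6, carried the L10a transgene, were 4 months old and had received a midbrain injection of AAV:THCre, a virus that drives Cre from the tyrosine hydroxylase promoter; tissue was taken 1 month after deletion. Esrrg Flox mice carried loxP sites around exon 2 of Esrrg, which encodes the nuclear receptor ERRγ, whereas Esrrg WT mice did not, and each library came from several pooled animals. Replicates 2, 3 and 4 of WT and replicates 2 and 4 of Flox gave 5 libraries in all.

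Most lncRNAs of this kind stay in the nucleus and are not translated. Malat1 lies in nuclear speckles, bodies that store splicing factors, and Neat1 is the scaffold of paraspeckles, bodies built on its long isoform together with RNA-binding proteins. Meg3, Rian and Mirg are expressed from the maternal chromosome of the imprinted Dlk1-Dio3 region and contain or host small RNAs. Kcnq1ot1 is transcribed from the paternal chromosome antisense to Kcnq1 and silences genes around it. Miat is a neuronal nuclear RNA, and Snhg11 is a neuron-enriched host of small nucleolar RNAs (snoRNAs). An RNA that is not on ribosomes reaches a BAC-TRAP library by carry-over, and no unpurified input library was analysed here, so neither enrichment nor depletion by the purification can be given.

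The libraries were poly(A)-selected, so the 3′ ends of these RNAs bear on how they are captured. The last 30 bases of the longest annotated transcript of each gene are shown, with the polyadenylation hexamer AATAAA or ATTAAA in capitals. For Neat1 both the short and the long isoform are shown, because only the first ends in a conventional poly(A) site. Sequences are from GENCODE release M21 and coordinates are on GRCm38, each within an exon.
Malat1, chr19:5795690-5795719, minus strand: ttttatgaAATAAAaactaaatatctctca
Neat1 short, chr19:5842307-5842336, minus strand: tttacagcaaAATAAAggtttgagattgaa
Neat1 long, chr19:5824708-5824737, minus strand: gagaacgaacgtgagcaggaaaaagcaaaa
Meg3, chr12:109571697-109571726, plus strand: gctttcAATAAAtttcttgttttaactaaa
Miat, chr5:112213228-112213257, minus strand: atttcaatATTAAAaccgacacacactgga
Rian, chr12:109654980-109655009, plus strand: atacttatatgagtgaaaaAATAAAaaaaa
Mirg, chr12:109749429-109749458, plus strand: gaatAATAAAcatatgtcatataatgtaaa
Snhg11, chr2:158386116-158386145, plus strand: gaaccacaaAATAAAcactgtcttccttaa
Kcnq1ot1, chr7:143203458-143203487, minus strand: taatAATAAAgacATTAAAatccacaaaac
The hexamer began between 11 bases (Rian) and 26 bases (Mirg and Kcnq1ot1) before the annotated end, and the long Neat1 transcript had none in its last 50 bases. Of 55450 genes with an annotated transcript, 38.3% had a hexamer in the last 50 bases of the longest one, and of 10723 lncRNA genes 43.4% did.

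The long isoform of Neat1 and the mature form of Malat1 are known to be cut by RNase P and to end in a triple helix of U-rich and A-rich stretches in place of a poly(A) tail. The Malat1 stretch shown was cut at the end of the longest A run of the transcript, of 12 bases. It need not reach the end of the mature form. The Neat1 stretch is the end of the long transcript. Runs of at least 4 T or 4 A are in capitals.
Malat1, chr19:5795988-5796087, minus strand: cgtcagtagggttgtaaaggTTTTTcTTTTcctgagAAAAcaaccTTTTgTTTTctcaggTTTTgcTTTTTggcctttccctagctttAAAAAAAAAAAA
Neat1 long, chr19:5824708-5824807, minus strand: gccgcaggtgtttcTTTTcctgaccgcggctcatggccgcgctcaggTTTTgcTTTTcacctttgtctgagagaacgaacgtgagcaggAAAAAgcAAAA
Counts were made per gene, so the isoforms of Neat1 were not separated in these data.

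All 8 lncRNAs had a positive log2 fold change in Esrrg Flox, and 1 of them, Neat1, passed the test (DESeq2, Wald test, two-sided, adjusted p under 0.05). Over all 15724 genes tested, 4.20% were called higher and 4.05% lower, 8.25% in all. The median log2 fold change of the 8 was 0.71, beside -0.01 over all genes tested. Both Flox libraries lay above every WT library for 6 of the 8, against 19.9% of all genes tested, and the exceptions were Rian and Mirg. The libraries held between 20635855 and 23105058 assigned counts, and a single gene in 3 against 2 libraries cannot go below p = 0.1 in an exact permutation test. Nothing in the labels says more about how the pools were formed, so the p-values measure the spread between these libraries only.

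**Figure D1:**
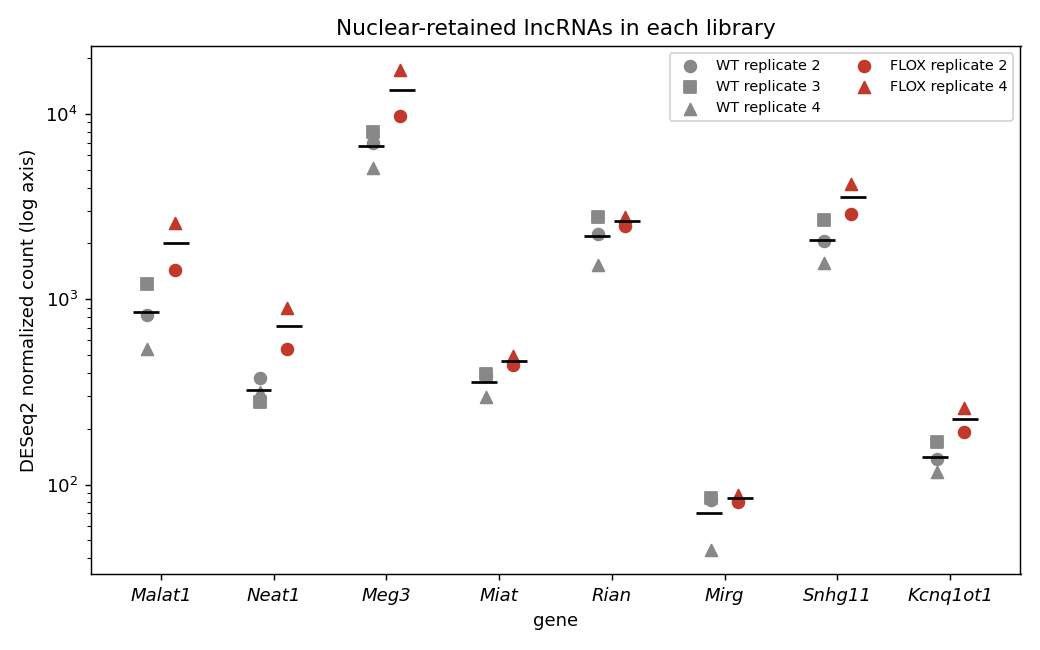
DESeq2 normalized counts (log axis) of the 8 lncRNAs in each of the 5 libraries, with WT in grey, Flox in red and black bars at group means. Both Flox libraries lie above all WT libraries for every gene but Rian and Mirg, and Flox replicate 4 is the highest library for all 8 genes.

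Neat1, the paraspeckle scaffold, rose in Esrrg Flox. Its normalized counts (counts divided by the DESeq2 size factor of the library) were 374, 280 and 316 in WT replicates 2, 3 and 4, and 538 and 895 in Flox replicates 2 and 4. The groups did not overlap, and the lower Flox library was 43.8% above the highest WT library. The log2 fold change was 1.15 ± 0.22 (SE), with a DESeq2 adjusted p of 3.38e-05. Without Flox replicate 4 it was 0.73 and no longer passed (DESeq2 adjusted p = 0.124). The call was also lost under 2 of 8 edgeR settings, with adjusted p of 0.126 and 0.0727.

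Malat1, the nuclear speckle RNA, had the largest fold change of the 8 and did not pass. Its normalized counts were 825, 1206 and 540 in WT and 1442 and 2591 in Flox. The groups did not overlap, but WT alone spanned 2.23-fold and Flox 1.80-fold. The log2 fold change was 1.23 ± 0.52 (SE; DESeq2 adjusted p = 0.128), and 0.75 without Flox replicate 4 (0.936). Its WT spread, an SD of 0.579 on the log2 scale, exceeded that of 99.1% of the 11522 genes with a mean normalized count of at least 100, for which the median SD was 0.109.

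Of the maternally expressed RNAs of the Dlk1-Dio3 region, Meg3 was the most abundant of the 8. Its normalized counts were 6995, 7985 and 5094 in WT, and 9746 and 17286 in Flox. Both Flox libraries were above the WT range, and the log2 fold change of 1.01 ± 0.38 (SE) missed the threshold (DESeq2 adjusted p = 0.0762). Its call depended on single libraries and on the correction for exonic length. The log2 fold change dropped to 0.54 when Flox replicate 4 was left out (DESeq2 adjusted p = 0.839), whereas Meg3 passed without Flox replicate 2 (0.00396) and with the trend on exonic length removed (0.0465).

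Rian and Mirg, from the same imprinted region, overlapped between groups. Rian had 2249, 2792 and 1525 normalized counts in WT and 2475.6 and 2794.5 in Flox, and its log2 fold change was 0.27 ± 0.33 (SE), with 0.740 as the DESeq2 adjusted p. Mirg had 82.2, 84.6 and 44.2 in WT and 80.7 and 87.5 in Flox, with a log2 fold change of 0.26 ± 0.35 (SE) and 0.769 as the DESeq2 adjusted p. For both, WT replicate 4 was low and the other 4 libraries lay close together. Without WT replicate 4 the log2 fold change of Mirg was 0.01 and that of Rian 0.06.

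The paternally expressed Kcnq1ot1 had 138, 169 and 116 normalized counts in WT and 191 and 258 in Flox. The groups did not overlap, and the log2 fold change was 0.67 ± 0.24 (SE; DESeq2 adjusted p = 0.0651). It was 0.39 with the trend on exonic length removed (DESeq2 adjusted p = 0.356) and 0.43 without Flox replicate 4 (0.901). Its exonic annotation spans 93092 bases in 1 exon, so unspliced RNA of genes that overlap it cannot be separated from it in counts made without strand.

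Snhg11 had 2052, 2680 and 1569 normalized counts in WT and 2899 and 4203 in Flox, a log2 fold change of 0.76 ± 0.35 (SE; DESeq2 adjusted p = 0.189). Flox replicate 2 was 8.17% above the highest WT library. It passed without WT replicate 3 (DESeq2 adjusted p = 8.26e-05), and with Flox replicate 4 left out its log2 fold change was 0.46 (0.953). Miat had 386, 394 and 298 in WT and 439 and 494 in Flox, the smallest change among the genes whose groups did not overlap (log2 fold change 0.38 ± 0.18, SE; DESeq2 adjusted p = 0.190). Other annotated genes overlap 30.4% of the exonic bases of Miat, and reads there were not assigned to it.

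**Figure D2:**
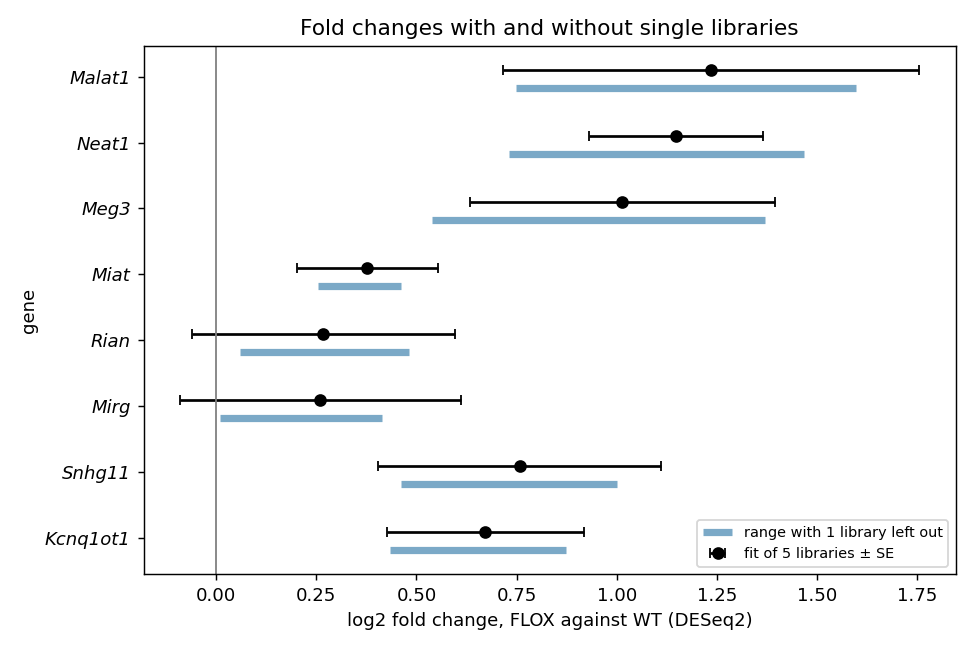
Log2 fold change of each lncRNA in Flox against WT, as the DESeq2 estimate from 5 libraries with its SE (black) and as the range over the fits that leave out 1 library (blue). All estimates are above 0, and the ranges of Rian and Mirg reach down to 0.06 and 0.01.

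Per length, the order of the genes differed from that of their counts. On the scale of counts per kilobase of exon, divided by assigned counts as CPM is, Meg3 stood at 17.8, 20.5 and 12.7 in WT replicates 2, 3 and 4. The WT mean was 11.3 ± 3.17 (SD, n = 3) for Snhg11, 5.65 ± 2.28 for Malat1 and 5.52 ± 1.68 for Rian. Meg3 was above Snhg11 in each of the 3 WT libraries, although their ranges overlapped, and Malat1 and Rian did not differ beyond their spread. Miat followed at 1.78 ± 0.289, Neat1 at 0.714 ± 0.103, Mirg at 0.444 ± 0.148 and Kcnq1ot1 at 0.0697 ± 0.0142. Meg3 ranked 3224 of 29204 genes in WT and Malat1 ranked 6570, on exonic length from an annotation older than the one named for these counts.

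The 8 lncRNAs together took a small share of each library. The share of assigned counts was 0.0603% (95% Wilson interval 0.0592 to 0.0613), 0.0725% (0.0714 to 0.0737) and 0.0428% (0.0420 to 0.0437) in WT replicates 2, 3 and 4. In Flox it was 0.0811% (0.0799 to 0.0822) and 0.126% (0.1245 to 0.1274), and the intervals cover counting error only. The Flox mean was 1.77 times the WT mean, and Meg3 held between 51.2% and 60.4% of the sum. With Meg3 left out the Flox mean was 1.56 times the WT mean.

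The libraries kept nearly the same order for most of the 8. WT replicate 4 was the lowest library for 7 of 8 genes (23.4% of all genes tested), Neat1 being the exception, and Flox replicate 4 was the highest for all 8 (29.5%). For 5 genes, Malat1, Meg3, Miat, Snhg11 and Kcnq1ot1, the order was WT replicate 4, WT replicate 2, WT replicate 3, Flox replicate 2 and Flox replicate 4, an order held by 3.96% of all genes tested. The share of assigned counts in all genes of lncRNA biotypes had the same order. It was 0.65%, 0.715% and 0.744% in WT replicates 4, 2 and 3, and 0.746% and 0.798% in Flox replicates 2 and 4. These biotypes include the 8 lncRNAs except Snhg11, so that order is not independent of theirs. The share without them was not computed. For the 3 lncRNAs that varied most, the genes with the most similar profile were found by the root mean square difference of centred log2 normalized counts over the 5 libraries, among 11522 genes. They were Cx3cr1 (0.0753), Olfml3 (0.171) and Hcls1 (0.179) for Malat1. For Neat1 they were Lgals1 (0.0700), S100a11 (0.0975) and Nfkbia (0.124), and for Meg3 F11r (0.0772), Hk2 (0.0860) and Anxa2 (0.116).

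Microglial and endothelial markers were higher in Flox, by the median log2 fold change of each list. Within WT their sums were highest in replicate 3, as were 7 of the 8 lncRNAs, whereas Neat1 was lowest there. The share of all genes with this pattern was not computed. Of 12 microglial markers, 10 passed and were higher in Flox and none was lower, with a median log2 fold change of 1.69. Their summed normalized counts ran from 1544.9 to 2930.8 in WT and from 5211.5 to 11161.9 in Flox, lowest in WT replicate 4 and highest in Flox replicate 4, and no marker was at 0. The complement gene C1qa had 627, 743 and 377 normalized counts in WT and 1598 and 4044 in Flox, a log2 fold change of 2.28 ± 0.58 (SE) that passed (DESeq2 adjusted p = 0.00367). The largest changes after it that passed were those of Aif1 (log2 fold change 2.24), C1qc (2.10) and Tyrobp (2.09). None of the 12 passed without Flox replicate 4, 3 passed without WT replicate 2 and 5 without WT replicate 4. Of 8 endothelial markers 3 passed, Flt1, Slco1a4 and Cldn5, all higher, with sums of 145 to 313 in WT and 336 to 737 in Flox, and 1 passed without WT replicate 2 and 0 without WT replicate 4 or Flox replicate 4. The part of these cells in the lncRNA values was not tested. In these libraries more cells of a type, more RNA per cell and more carry-over in the purification cannot be told apart.

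**Figure D3:**
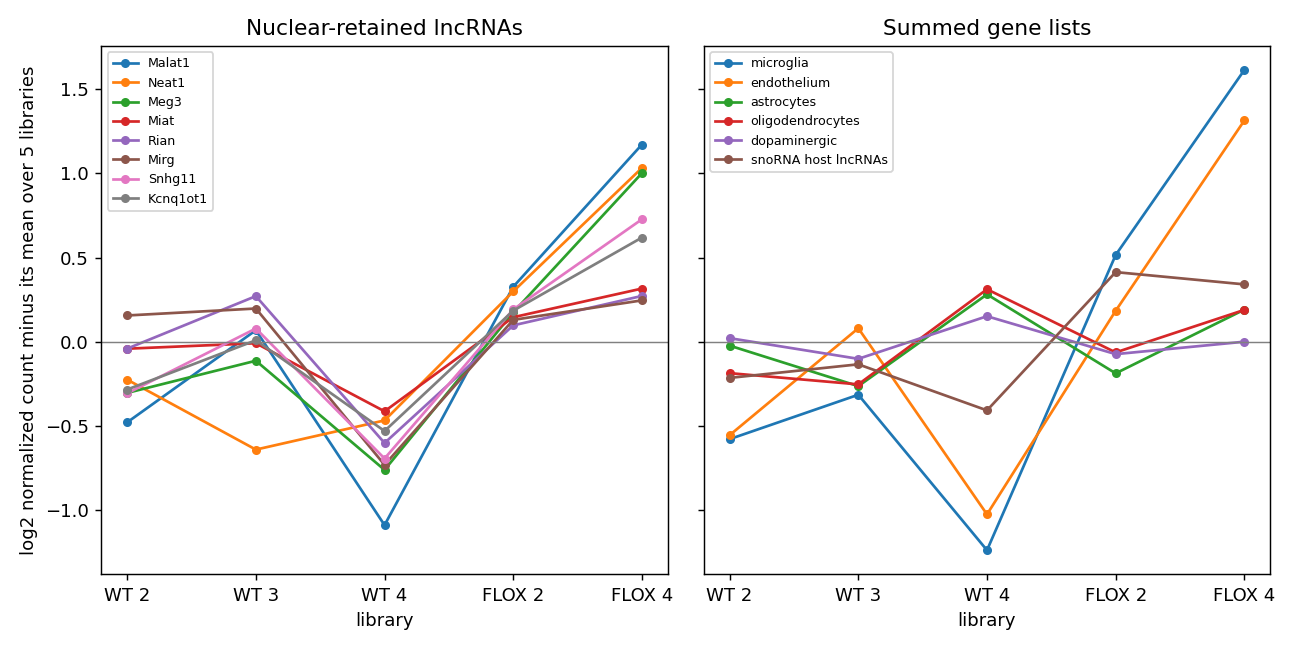
Log2 normalized counts in each library minus their mean over the 5 libraries, for the 8 lncRNAs (left) and for the summed counts of 6 gene lists (right), with lines joining libraries only to guide the eye. Microglial and endothelial sums are lowest in WT replicate 4 and highest in Flox replicate 4, as are 7 of the 8 lncRNAs, while astrocyte and oligodendrocyte sums are highest in WT replicate 4.

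Astrocytic (9), oligodendrocytic (8), blood (5) and glutamatergic (3) markers had no gene past the DESeq2 test. At an unadjusted p under 0.05 there was 1 astrocytic gene and 0 of the other 3 lists, and the planned edgeR fit called 1 astrocytic and 4 blood genes. The astrocytic Aldoc and Gfap had log2 fold changes of -0.01 and -0.10, and the oligodendrocytic Mbp had 0.15. The blood markers Hbb-bs and Hba-a1 had 0.75 and 0.56, and Slc17a6 and Slc17a7, vesicular glutamate transporters, had -0.14 and -0.40. Slc17a7 had 2974, 2772 and 390 normalized counts in WT and 2303 and 800 in Flox, low in both libraries numbered 4. The dopaminergic markers were present in all libraries, with Th between 9849 and 12813 normalized counts. In the same libraries Gfap had between 18865 and 32741 and Mbp between 27761 and 44929. Counts of single genes do not give the shares of cell types. Of the 11 dopaminergic markers 1, the neurotrophic receptor gene Ret, passed and was lower (log2 fold change -0.40 ± 0.10, SE; DESeq2 adjusted p = 0.00291). Of 6 GABAergic markers, Sst was higher (0.54) and Gad2 lower (-0.35). Without WT replicate 2 Ret did not pass, and without any 1 WT library 1 GABAergic marker passed. Esrrg itself had 1763, 1643 and 1726 normalized counts in WT and 1504 and 1170 in Flox, a log2 fold change of -0.35 ± 0.13 (SE) that missed the threshold (DESeq2 adjusted p = 0.0753), and counts over the whole gene do not resolve exon 2.

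Genes next to these lncRNAs were compared in 3 lists, beside the 8.25% of all genes tested that passed. None of the 4 tested neighbours in the Dlk1-Dio3 region passed, Dlk1 having a log2 fold change of 0.06 and Begain -0.16. Of 5 tested genes around Kcnq1ot1, Tssc4 was higher (0.35 ± 0.11, SE; adjusted p of 0.0334 by DESeq2), while the imprinted Cdkn1c, which Kcnq1ot1 is known to silence, had a log2 fold change of 0.88 (DESeq2 adjusted p = 0.112). None of the 8 neighbours of Malat1 and Neat1 passed, and 5 of them had both Flox libraries below every WT library (22.5% of all genes tested). Among these 8, Ltbp3 had a log2 fold change of -0.16. At an unadjusted p under 0.05 DESeq2 had 1 of the 8, 0 of the Dlk1-Dio3 neighbours and 4 of the 10 genes with a count around Kcnq1ot1, and the planned edgeR fit called 1, 0 and 2. Without Flox replicate 4, or any 1 WT library, Tssc4 did not pass.

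Genes for proteins of paraspeckles and nuclear speckles were also compared. None of 14 paraspeckle protein genes passed, and Hnrnpk, the most abundant, had a log2 fold change of 0.25. In DESeq2 1 of the 14 had an unadjusted p under 0.05, and the planned edgeR fit called 3. Of 13 nuclear speckle protein genes, Son and Srsf11 were higher. Their log2 fold changes were 0.54 ± 0.12 and 0.46 ± 0.11 (SE), and their adjusted p in DESeq2 was 0.000661 and 0.00261. Of 8 mRNAs known for introns retained in the nucleus, the splicing factor gene Srsf5 was higher (0.41 ± 0.12, SE; DESeq2 adjusted p = 0.0128). Without WT replicate 2, 1 speckle gene and 0 of these mRNAs passed, and without Flox replicate 4 none of either. Without WT replicate 3 Srsf5 did not pass, and without Flox replicate 2 the count was 5 for speckle and 2 for paraspeckle genes.

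Other lncRNAs gave a wider context. Of 12 tested snoRNA host lncRNAs, which are spliced, exported and degraded on ribosomes, 7 passed and all were higher, with a median log2 fold change of 0.53. The count was 2 without Flox replicate 4, 3 without WT replicate 2, 4 without Flox replicate 2, 2 with the replicate block and 3 with the trend on exonic length removed. Gas5 had 3131, 3197 and 2683 normalized counts in WT and 4894 and 4471 in Flox, a log2 fold change of 0.64 ± 0.12 (SE) that passed (DESeq2 adjusted p = 1.19e-05). The largest changes were those of Snhg15 (1.03), Zfas1 (0.79), Epb41l4aos (0.71) and Gas5. The sum of the hosts was higher in Flox replicate 2 than in replicate 4, unlike each of the 8 lncRNAs. Among the 8, Snhg11 is itself a snoRNA host, was not in this list and is annotated as protein-coding in GENCODE M21. Of 16 other lncRNAs, Firre was higher (0.69; DESeq2 adjusted p = 0.0461) and Peg13 lower (-0.44; 0.00237), with none passing without WT replicate 2 or Flox replicate 4 and 1 without WT replicate 3. Over all 1033 tested genes of lncRNA biotypes, 24 (2.32%) were higher and 8 lower, 3.1% in all, with a median log2 fold change of 0.05. Of 14016 protein-coding genes, 4.42% were higher and 8.88% were called in all, and their median log2 fold change was -0.01. The median of the mean normalized counts was 37.4 for the lncRNA genes and 499 for the protein-coding genes.

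**Figure D4:**
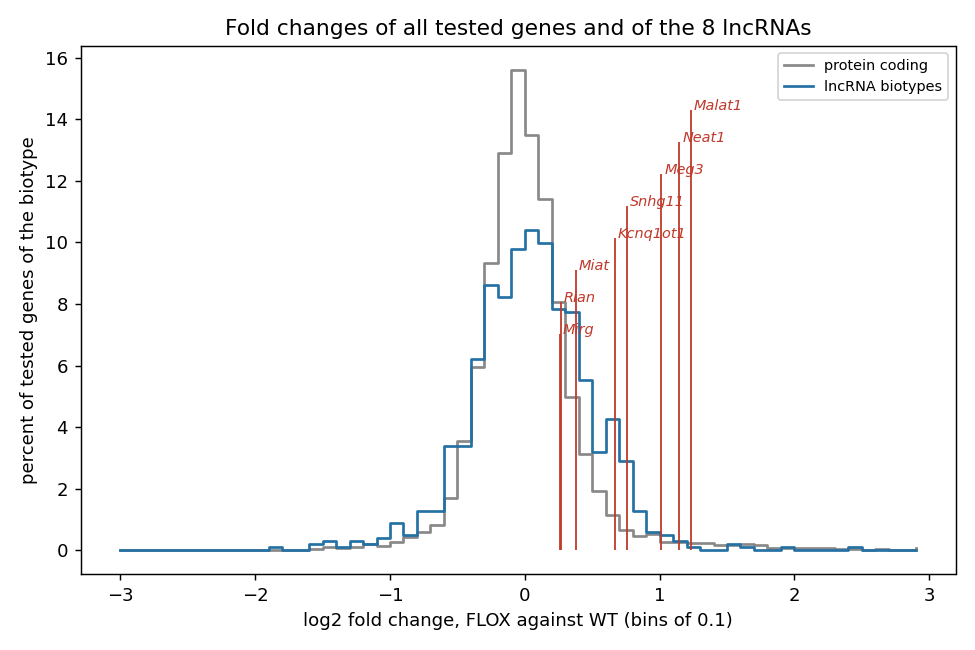
Distribution of log2 fold changes in Flox against WT over tested protein-coding genes (grey) and tested lncRNA genes (blue), as the percent of genes per bin, with the 8 nuclear-retained RNAs as red lines whose heights carry no value. The 8 lie between 0.26 and 1.23, to the right of both medians. Snhg11 is annotated as protein-coding and so belongs to the grey distribution.

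Sequence features varied among the 8. The pentamer AGCCC, described as a nuclear retention signal, was counted on the transcript strand of the longest transcript. It occurred at 2.09 per kilobase in Mirg, 1.86 in Meg3, 1.85 in Miat and 1.02 in Snhg11, above the median of 0.992 over lncRNA genes. The other 4 lay below it, with 0.956 in Kcnq1ot1, 0.818 in Neat1, 0.716 in Malat1 and 0.371 in Rian. The ERR response element TNAAGGTCA, searched on both strands of RefSeq promoters (250 bases before to 50 after a start, GRCm38.p6), matched 1 of 8 promoters listed for 7 of the genes and 1.28% of all 32851. The match was in a Meg3 promoter and is shown because ERRγ is the factor removed, with the element, on the minus strand, in capitals.
Meg3 promoter, chr12:109545237-109545285, plus strand: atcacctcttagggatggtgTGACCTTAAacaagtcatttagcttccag
The match began 141 bases before that start.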

How the data were processed

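The authors trimmed reads of poly(A)-selected, unstranded libraries, aligned them with STAR and counted them per gene with HTSeq-count; the deposited values are raw counts. The submitters' processing notes name STAR 2.7.9a, HTSeq 0.11.3 and GRCm39, whereas the study's methods name GRCm38, so the build is unsettled. Gene IDs were matched without version to GENCODE M21 (52093 of 53700); lengths come from it. Reads in overlapping genes were not assigned. A count of 0 allows up to 0.130 to 0.145 CPM (3 counts).

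The 29407 genes with a count were fitted with DESeq2 1.42.0 in R 4.3.3 (default size factors, Wald test, independent filtering at 0.05, Benjamini-Hochberg). Alternatives were edgeR 4.0.16, TMM and upper-quartile scaling, a filter (10 counts in 2 libraries), a replicate block, a length correction, a fold of 1.5 and leaving out each library. The fits were tested on simulated data; with gene-wise dispersions both tools made more false calls than the threshold allows, and with trend dispersions the share was near or under it. Of each list, genes past the test were named by size of change, at most 4, or otherwise the 2 most abundant; others were named after their values were seen. Some genes that this rule names are not reported here. The members and lists were chosen with earlier results of these data known.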

Additional observations from a re-analysis of the deposited data

How the results depend on the processing

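All 8 lncRNAs kept a positive log2 fold change under all 18 refits, and the median of the 8 ran from 0.45 to 0.94. Neat1 passed in 15 of the 18, and independent filtering left Mirg without an adjusted p in 3 and Kcnq1ot1 in 1. The number passing (1 as reported) was 2 with the length trend removed, and 0 to 2 when 1 library was left out, 0 without Flox replicate 4, where 1 had an unadjusted p under 0.05 in DESeq2. The planned edgeR fit (all genes, default settings) gave 5 of 8 (Malat1, Neat1, Meg3, Snhg11 and Kcnq1ot1), beside 1799 of 29407 genes (6.12%) and 42 list genes. Because that fit shrank dispersions strongly (prior degrees of freedom 50.4, beside 6.20 after the filter on low counts), 7 further edgeR settings were run after these values had been seen, and all are given. On all genes they gave 2 (robust shrinkage), 0 (the newer quasi-dispersion estimate of edgeR) and 0 (both) of 8, with 4, 6 and 3 at an unadjusted p under 0.05. With the filter, all 4 gave 1, Neat1, with adjusted p between 0.0407 and 0.0458. The number of lncRNAs called thus depends on the edgeR setting, and no setting was preferred for its result.

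Over all genes, 1297 were called as reported, 500 with a fold of 1.5 also required, and 72 to 1585 with 1 library left out (72 without Flox replicate 4, 343 without WT replicate 2 and 641 without WT replicate 3). The added edgeR settings gave 2139 (robust), 0 (newer dispersion) and 576 (both) on all genes, and 275, 561 (robust), 396 (newer dispersion) and 522 (both) with the filter. Genes of the other lists past the test numbered 29 as reported and 19 with the fold, 3 to 34 with 1 library left out, 0 and 10 with the newer dispersion without and with robust fitting, and 10, 11, 13 and 11 with the filter. Microglial markers past the test numbered between 0 and 11 over these refits. Upper-quartile scaling moved the share of calls that were higher from 50.9% to 62.7%. The cause of these differences was not tested.

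With the replicate block, 1 of 8 lncRNAs (Neat1, adjusted p = 0.0113), 476 genes and 14 list genes passed. Replicate numbers 2 and 4 are shared by the groups, and the main fit did not take them as pairs. The deviations of same-numbered libraries from their group means correlated at 0.092 and 0.089 over genes. The deviations of the Flox libraries mirror each other, so these values are not separate checks. They cannot show whether same-numbered libraries share a batch. The summed share rose by 0.0450 percentage points in Flox as reported, by 0.0225 to 0.0674 with 1 library left out, and by 0.0155 without Meg3.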
